A study of Mus musculus with 6 samples.

Results

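Chemokine receptors are heptahelical surface proteins through which leukocytes sense gradients of small secreted chemokines and move towards them. The 8 genes described here are Ccr2, Cx3cr1, Ccr1, Ccr3, Ccr9, Cxcr6, Xcr1 and Ccrl2. They are chemokine receptor genes that share mouse chromosome 9 with Myd88, the gene targeted in this study. A further 6 measured chemokine receptor genes of chromosome 9 are not among them and served as part of a comparison. The 8 genes were taken by gene symbol from 19505 named genes on the array, with earlier results of these data known. Each had 1 probe set. RNA came from submandibular glands, a major pair of salivary glands, of 6 female mice of 10 weeks. The 3 controls were NOD.B6-Myd88+/+ and the other 3 were NOD.B6-Myd88−/−, homozygous for the disrupted allele with no cell type named as its limit, and each mouse had an array of its own. All 6 share the NOD background, a strain whose salivary glands become infiltrated by leukocytes with age. The labels do not say how far the segment around Myd88 differs in strain origin between the groups. An effect of Myd88 and an effect of linked alleles therefore cannot be told apart.

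Most of these receptors couple to inhibitory G proteins, and each marks particular leukocytes. Ccr2 brings inflammatory monocytes out of the bone marrow and into tissue, and Cx3cr1, the receptor for fractalkine, marks patrolling monocytes and many resident macrophages. Ccr1 is found on several myeloid cells and Ccr3 is best known from eosinophils. Ccr9 directs thymocytes and gut-homing T cells, Cxcr6 is carried by activated and tissue-resident lymphocytes, and Xcr1 marks the dendritic cells that cross-present antigen. Ccrl2 is an atypical member that binds the attractant chemerin without the usual signalling.

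Levels are on the authors' log2 scale after the robust multi-array average (RMA), and the 3 values of a group are listed in replicate order. Array medians ran from 6.0 to 6.1, and the 15 pairs of arrays correlated at 0.982 to 0.991 across probe sets. As marks of background, 23 probe sets named as background controls had a median of 5.55, and 5222 named as negative controls had a median of 6.14. The gland's own genes were bright in both groups: the kallikrein gene Klk1 and the salivary protein gene Prol1 sat on the ceiling of 19.93 on all 6 arrays. The water channel gene Aqp5 read 13.98 in Myd88+/+ and 13.84 in Myd88−/− glands. Myd88 itself, from a probe set that may or may not lie in the disrupted part of the gene, had a mean of 7.73 ± 0.18 against 7.20 ± 0.35 (SD, n = 3 each), with a limma adjusted p of 0.462.

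Of the 8 receptors, 7 had a lower mean in Myd88−/− glands, and in 3 of them, Ccr2, Cx3cr1 and Ccr9, every Myd88−/− value lay below every Myd88+/+ value. Ccr2 had the widest difference, a 2.97-fold lower level, and was the only one of the 8 above the background control median on all 6 arrays. Ccr1 and Ccr3 differed by 0.10 and −0.01 on the log2 scale. None of the 8 passed limma's test adjusted over all probe sets (0 of 8, adjusted p 0.339 to 0.998), and neither did any other probe set on the array. Among all 22206 tested probe sets limma called 0 (0%) at an adjusted p under 0.05, and at an unadjusted p under 0.05 it counted 1233 lower (5.55%) and 999 higher (4.5%). At that unadjusted level 4 of the 8 receptors, Ccr2, Ccr9, Cx3cr1 and Xcr1, were lower and 0 were higher. Groups that did not overlap, with Myd88−/− lower, made up 3 of 8 receptors and 7.25% of all tested probe sets. At least 2-fold lower were 2 of 8, Ccr2 and Ccr9, and 0.829% of all. The median log2 difference was −0.65 over the 8 receptors and 0.01 over all named genes. Without Myd88+/+ replicate 1, 5 of the 8 were lower with no overlap, where 11.2% of all probe sets were. Leaving out any other mouse instead gave 3 or 4 of the 8, against 10.9% to 15.5% of all.

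**Figure D1:**
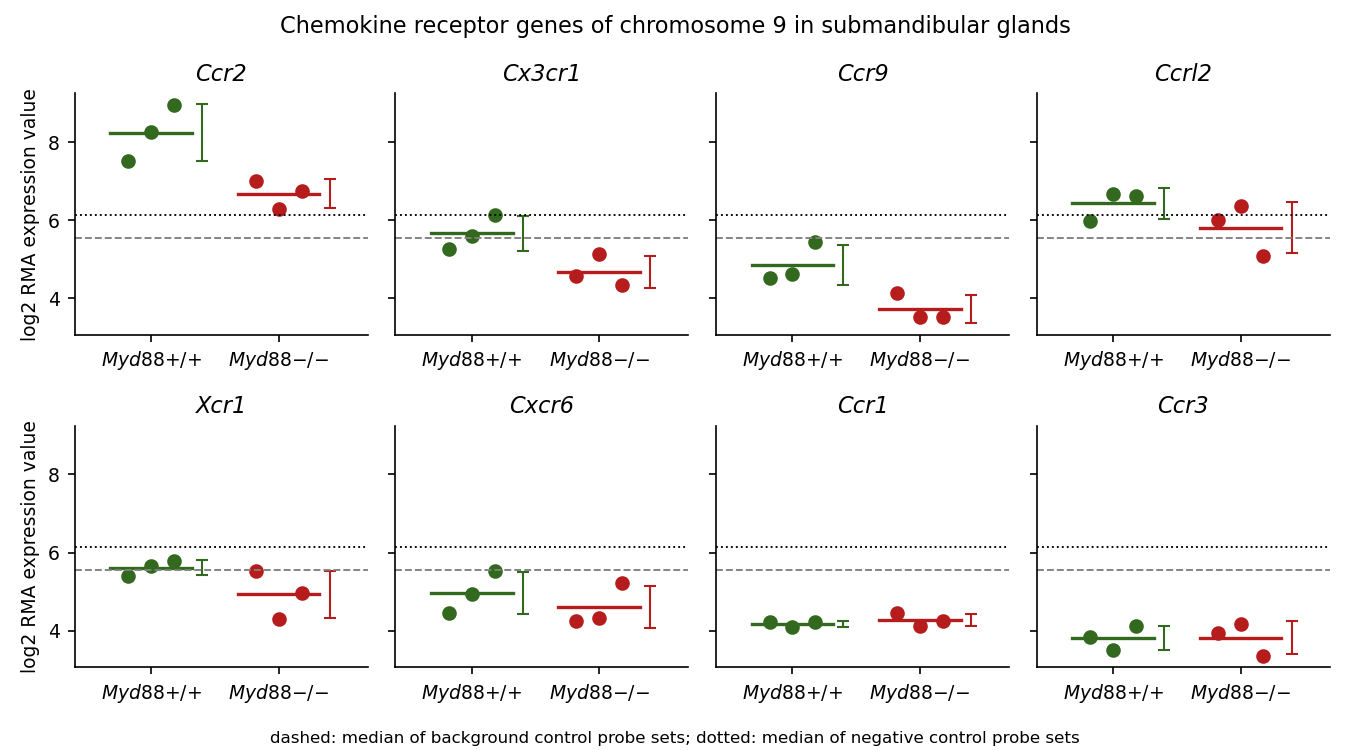
Each panel plots 1 receptor gene, with the log2 RMA expression value on a shared vertical axis, a point for each mouse, a horizontal line at the group mean and a bar of 1 SD on either side of the mean. Ccr2 stands above both control medians (dashed 5.55, dotted 6.14) in all mice and its groups do not overlap, while Ccr1 and Ccr3 lie near 4 in both groups.

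The myeloid receptors come first. For Ccr2 the Myd88+/+ glands gave 7.52, 8.27 and 8.96 and the Myd88−/− glands 7.01, 6.28 and 6.75. The groups were 0.51 apart at their nearest, between Myd88+/+ replicate 1 and Myd88−/− replicate 1, and the Myd88+/+ glands spread more widely. The means were 8.25 ± 0.72 and 6.68 ± 0.37 (SD, n = 3 each), a log2 difference of −1.57 (standard error, SE, 0.34). Limma's adjusted p was 0.339, with 0.121 to 0.675 over all settings tried, and a two-sided exact permutation test gave p = 0.1, below which 3 mice against 3 cannot go. Leaving out 1 mouse moved the difference between −1.93 and −1.22. The Ccr2 mean exceeded 86.6% of the negative control probe sets in Myd88+/+ glands and 61.8% in Myd88−/− glands. Some probe sets that should carry no signal thus read as high as Ccr2 in either group.

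Cx3cr1 read 5.26, 5.60 and 6.14 in Myd88+/+ and 4.57, 5.13 and 4.34 in Myd88−/− glands. The groups did not overlap, but only 0.13 separated Myd88+/+ replicate 1 from Myd88−/− replicate 2. The log2 difference was −0.99 (SE 0.27), a 1.98-fold lower level, at a limma adjusted p of 0.380 (0.201 to 0.684 over all settings tried). Only 2 of its 6 values exceeded the background control median of their array, and its group means exceeded 39.8% and 19.6% of negative controls, which leaves the size of this difference uncertain.

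Ccr1 gave 4.22, 4.09 and 4.21 in Myd88+/+ and 4.44, 4.12 and 4.26 in Myd88−/− glands. Ccr3 gave 3.83, 3.51 and 4.13 and, in the Myd88−/− glands, 3.94, 4.17 and 3.35. In both genes the groups overlapped, and all 6 values lay under the background control median. Their differences, 0.10 (SE 0.17) and −0.01 (SE 0.25), therefore come from probe sets with no signal above background, and a difference was not detectable at this signal. The sign for Ccr3 was not settled, since it turned without Myd88+/+ replicate 3 (0.15), without Myd88−/− replicate 3 (0.23) and with array weights (0.02). Ccr1, Ccr3 and Ccr2 belong to a cluster of closely related genes that may share probe sequence, so their separate values are uncertain.

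Among the lymphocyte and dendritic cell receptors, Ccr9 was the only one whose groups did not overlap. It read 4.52, 4.62 and 5.43 in Myd88+/+ and 4.14, 3.53 and 3.53 in Myd88−/− glands, with 0.38 between the nearest values. The log2 difference was −1.12 (SE 0.28), at a limma adjusted p of 0.345 (0.206 to 0.682 over all settings tried) and a two-sided exact permutation p of 0.1. All 6 values lay under the background control median, and the group means exceeded 22.8% and 5.50% of negative controls. Whether the Ccr9 transcript was present in the gland cannot be read from such values.

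Cxcr6 read 4.45, 4.93 and 5.52 in Myd88+/+ and 4.26, 4.33 and 5.22 in Myd88−/− glands. Its groups overlapped, and the difference of −0.37 (SE 0.33) shrank to −0.09 without Myd88+/+ replicate 3. Xcr1 read 5.41, 5.65 and 5.78 in Myd88+/+ glands, which lay close together, and 5.52, 4.31 and 4.96 in Myd88−/− glands, of which replicate 1 fell inside the Myd88+/+ range. Its difference was −0.68 (SE 0.29, limma adjusted p = 0.479) and was −0.37 without Myd88−/− replicate 2. Both genes exceeded the background control median on few arrays, Cxcr6 on 1 and Xcr1 on 2 of 6.

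Ccrl2, the atypical receptor, was above the background control median on 5 of 6 arrays. Its mean exceeded only 56.5% of negative controls in Myd88+/+ and 43.2% in Myd88−/− glands. It gave 5.98, 6.68 and 6.63 in Myd88+/+ and 5.995, 6.36 and 5.09 in Myd88−/− glands. The groups overlapped, the low value being Myd88−/− replicate 3. The log2 difference of −0.62 (SE 0.33, limma adjusted p = 0.562) was −0.26 without that mouse and −0.89 without Myd88−/− replicate 2.

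Markers of monocytes and macrophages, and of leukocytes in general, were lower in the same glands as Ccr2 and Cx3cr1. In a bulk gland, fewer cells of a type and less RNA per cell cannot be told apart. Of 12 measured monocyte and macrophage markers, 12 were lower in Myd88−/− glands and 7 did not overlap, where 7.25% of all probe sets were lower without overlap. Their median log2 difference was −0.995. Their summed level, as log2, was 12.15 to 13.60 in Myd88+/+ and 11.24 to 11.61 in Myd88−/− glands. Ly6c2, a surface protein of inflammatory monocytes, differed by −1.07 and the integrin gene Itgam by −1.36, both at a limma adjusted p of 0.321. All 6 general leukocyte markers were lower, 4 of them without overlap, and their summed level was 10.93 to 12.82 in Myd88+/+ and 10.32 to 10.68 in Myd88−/− glands. Among them Cd52 differed by −1.83 and Coro1a, an actin regulator, by −0.76. No marker of these lists lay under the background control median on all arrays. Itgam exceeded it on only 3 of 6 arrays and Coro1a on 2, with Myd88−/− means of 5.04 and 4.92 under it. Within the Myd88+/+ group Ccr2, Cx3cr1 and both marker scores were lowest in replicate 1 and highest in replicate 3.

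All 8 receptors were also set against those markers in the same mouse. The differences of Ccr2, Cx3cr1 and Ccr9 were then smaller, and those of the other 5 lay above 0. A marker score is the mean over a list of each gene's log2 value minus its mean over the 6 mice. Relative to the monocyte and macrophage score, Ccr2 differed by −0.50 (two-sided exact permutation p = 0.3) and Cx3cr1 by 0.08 (exact permutation p = 1). Relative to the general leukocyte score, Ccr2 differed by −0.37 (exact permutation p = 0.2) and Cx3cr1 by 0.21 (exact permutation p = 0.6). In all 4 of these comparisons the groups overlapped. Ccr9 differed by −0.06 and 0.08 relative to the 2 scores, also with overlap. Of the other 5, Ccr1 differed by 1.16 and 1.30, Ccr3 by 1.06 and 1.19 and Cxcr6 by 0.70 and 0.83, all without overlap (two-sided exact permutation p = 0.1). Xcr1 (0.38 and 0.52) and Ccrl2 (0.45 and 0.58) overlapped. The monocyte and macrophage score itself differed by −1.07 between genotypes and the general leukocyte score by −1.20. Subtracting them moves every difference upward, and for a gene level between groups the permutation p mainly reflects the score. Ccr1 and Ccr3 lay under background on all arrays, and Cxcr6 exceeded it on 1 of 6. The relative values of these genes thus mainly carry the marker score with its sign turned. These relative values were added after the data were seen.

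**Figure D2:**
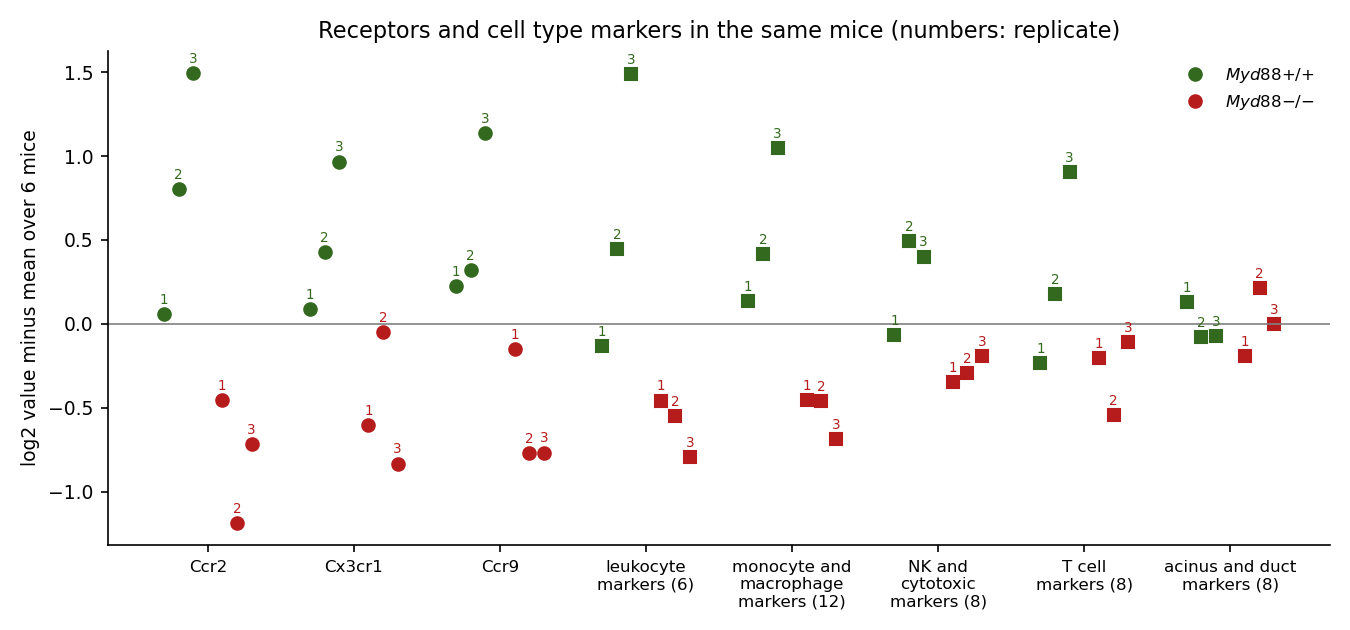
The log2 value minus its mean over the 6 mice is plotted for 3 receptors (circles) and as the mean over each marker list (squares, with the number of measured genes), with Myd88+/+ mice in green, Myd88−/− mice in red and the replicate number at each point. In Ccr2, Cx3cr1, Ccr9 and the leukocyte, macrophage and T cell markers Myd88+/+ replicate 3 is the highest of the 6 mice, and the acinus and duct markers show no such order.

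Markers of the cells known for the other receptors differed from list to list. For comparison, 7.25% of all probe sets were lower without overlap and 7.84% higher. T cell markers, beside which Ccr9 and Cxcr6 stand, were lower in 7 of 8, but 1 did not overlap, and their summed level was 9.22 to 10.44 in Myd88+/+ and 8.87 to 9.48 in Myd88−/− glands. Cd3e and Cd3g, chains of the T cell receptor complex, differed by −1.44 and −1.14, each with a Myd88−/− mean under the background control median. Without Myd88+/+ replicate 3, by far the highest mouse for both, the differences were −0.51 and −0.37. NK and cytotoxic markers were lower in 7 of 8, 5 of them without overlap. Their summed level was 8.56 to 9.26 in Myd88+/+ and 8.28 to 8.48 in Myd88−/− glands. Gzmb, a granzyme gene, was higher by 0.36 without overlap, but its groups were only 0.02 apart. Both its group means lay under the background control median, as did those of 4 of the 8 genes with Gzmb included. Klrb1c and Prf1 of that list lay under the background control median on all arrays, and its leading genes Klrb1c and Ncr1 differed by −0.95 and −1.18. Of 8 markers of cross-presenting dendritic cells, the cells of Xcr1, 5 were lower with a median of −0.05. Cadm1 and Wdfy4 led with −0.43 and −0.28, and Clec9a, Batf3 and Flt3 were under background on all arrays. Their summed level was 11.98 to 12.16 and 11.65 to 12.21. Most of that sum is Tlr3 alone, with means of 11.95 and 11.87, and 5 of the 8 had both group means under background. All 5 measured eosinophil markers, the cells of Ccr3, were under background on all arrays, with a summed level of 6.53 to 6.64 and 6.61 to 7.06. Prg2 and Ear6 differed by 0.44 and 0.38. The part of any of these cells in the receptor values was not tested.

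Several ligands of these receptors, among them Ccl28, Ccl11 and Cxcl16, were measured well above background. Of 15 measured ligand genes, 11 had a lower and 4 a higher mean in Myd88−/− glands, with a median log2 difference of −0.49. Groups did not overlap in 5 lower and 2 higher ligands, where 7.25% and 7.84% of all probe sets did so. None passed limma's adjusted test (0 of 15, adjusted p 0.321 to 0.966).

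Ccl28, a chemokine of mucosal and salivary epithelium that acts on Ccr3 and Ccr10, gave 12.90, 12.97 and 13.67 in Myd88+/+ and 12.02, 12.08 and 12.75 in Myd88−/− glands. Replicate 3 was the highest in each group, and the nearest values of the groups were 0.16 apart. Its log2 difference was −0.90 (SE 0.27), a 1.86-fold lower level, at a limma adjusted p of 0.388. Cxcl16, the membrane-bound ligand of Cxcr6, gave 10.24, 10.58 and 11.07 against 9.59, 10.01 and 9.59, a difference of −0.90 (SE 0.24) with no overlap. The eotaxin gene Ccl11, another ligand of Ccr3, gave 11.59, 11.54 and 11.79 against 11.06, 11.06 and 11.14. Its difference of −0.55 (SE 0.16) was smaller, but both groups were tight and 0.40 apart. For Ccr3 and Cxcr6, then, these ligands stood far above background in both groups while the receptor probe sets were near it or under it.

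The ligands of Ccr2 did not move as one. Ccl12, which attracts monocytes through Ccr2, gave 6.52, 7.45 and 8.22 against 6.37, 6.63 and 6.36, a difference of −0.95 with overlap that was −0.54 without Myd88+/+ replicate 3. Ccl2, the best known Ccr2 ligand, was higher in Myd88−/− glands by 0.22, with no overlap but only 0.03 between the nearest values. Ccl7 differed by 0.05. The Ccl2 means exceeded only 44.5% of negative controls in Myd88+/+ and 49.6% in Myd88−/− glands, and the Ccl7 means 37.9% and 39.0%. The contrast of these genes with Ccl12 is therefore uncertain. The Ccr1 ligand Ccl9 had the widest difference among ligands, with 8.48, 8.17 and 9.02 in Myd88+/+ and 6.98, 7.09 and 7.53 in Myd88−/− glands. That is a log2 difference of −1.35 (SE 0.25, limma adjusted p = 0.321). Its relative Ccl6 differed by −0.49, and Ccl3 and Ccl5, which also act on Ccr1, by −0.81 and −0.11, all 3 with overlap. Ccl3 exceeded the background control median on 4 of 6 arrays and Ccl5 on 2. Ccl2, Ccl7 and Ccl12, like Ccl6 and Ccl9, are close relatives whose probes may overlap.

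Ccl25, the ligand of Ccr9, was level, with 8.50, 8.53 and 8.65 against 8.30, 8.58 and 8.41 and a difference of −0.13 (SE 0.16). Cx3cl1, the fractalkine gene, differed by −0.66 without overlap, but all 6 of its values were under the background control median. Adam10 and Adam17, the proteases that shed Cx3cl1 and Cxcl16 from the cell surface, differed by 0.09 and −0.45, both with overlap. Xcl1, the ligand of Xcr1, differed by −0.42 and the Ccr3 ligand Ccl24 by 0.19, both near background and with overlap. Rarres2, the chemerin gene whose product Ccrl2 binds, was higher in Myd88−/− glands, with 5.23, 5.23 and 5.53 against 6.10, 5.86 and 5.88. Its difference of 0.62 (SE 0.17, limma adjusted p = 0.381) was opposite in sign to that of Ccrl2, and its Myd88+/+ mean lay under the background control median.

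**Figure D3:**
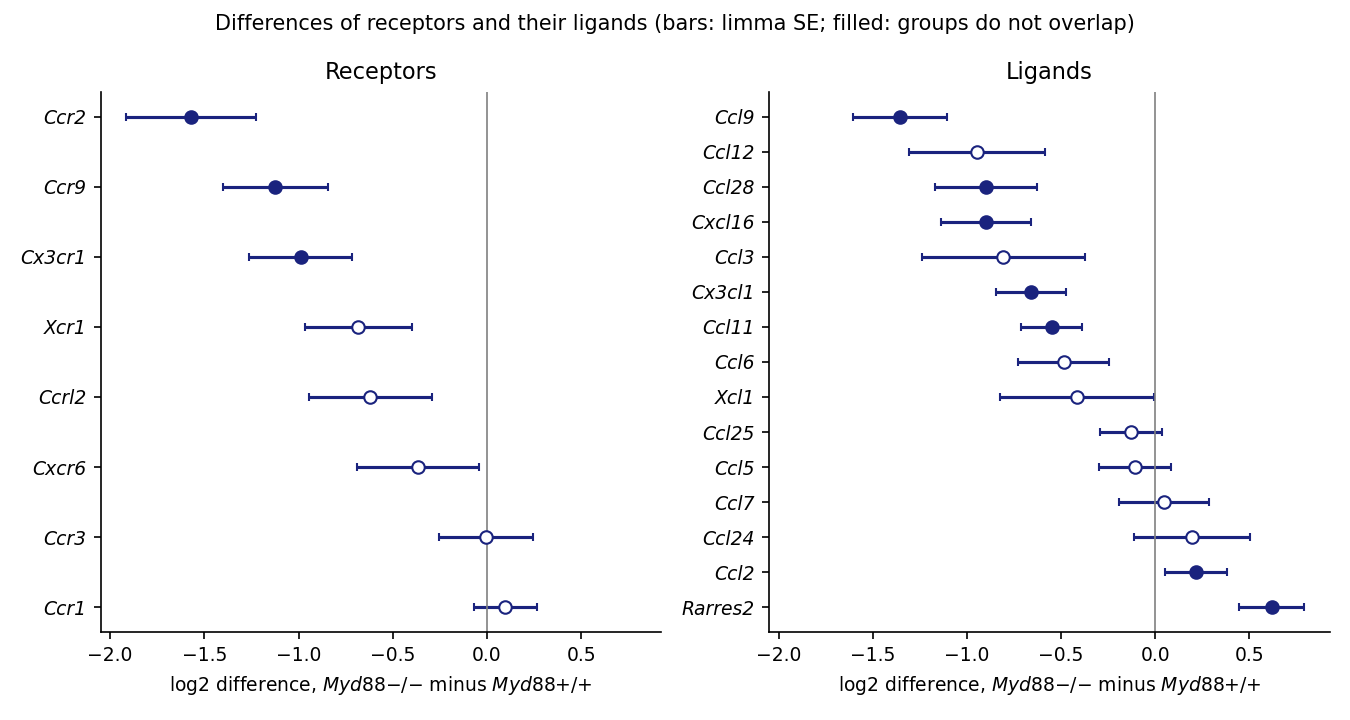
Log2 differences, Myd88−/− minus Myd88+/+, are plotted on the horizontal axis for the 8 receptors (left) and 15 ligands (right), with bars of 1 SE from limma and filled points where the groups do not overlap. Ccr2 (−1.57) and Ccl9 (−1.35) stand farthest to the left, and Rarres2 (0.62) farthest to the right.

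Chemokine receptor genes outside the 8 served as a comparison. Of 16 such genes, 7 had a lower and 9 a higher mean in Myd88−/− glands, with a median log2 difference of 0.04. Their groups did not overlap in 1 lower gene, Cxcr5, and 2 higher genes, Cxcr1 and the decoy receptor gene Ackr2. Of all probe sets, 7.25% were lower and 7.84% higher without overlap. Cxcr5, Cxcr1 and Ackr2 differed by −0.44, 0.38 and 0.38 and were the 3 with the smallest unadjusted p of 16. All 3 had both group means under the background control median. The nearest values of the groups were only 0.010 apart for Cxcr1 and 0.015 for Ackr2. Both group means were under the background control median in 11 of 16, and in 4 of the 8 chromosome 9 receptors. The lymphocyte receptor genes Cxcr3 and Ccr7, which were above it on all 6 arrays, differed by −0.08 and −0.16, both with overlap and with signs that turned when 1 mouse was left out. Ccr7 was 0.43 without Myd88+/+ replicate 3 and −0.61 without Myd88+/+ replicate 1. Cxcr4, also above the background control median on all 6 arrays, differed by −0.26 with overlap. It stayed lower with any 1 mouse left out (−0.54 to −0.03). Of the 6 comparison genes that also lie on chromosome 9, 2 were lower and 4 higher.

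Among 18 measured genes of signalling below these receptors, 14 were lower, with a median log2 difference of −0.30. Of the 18, 6 were lower without overlap, against 7.25% of all probe sets. The 3 with the smallest unadjusted p were Plcb2, a phospholipase, Gnai2, an inhibitory G protein subunit, and Elmo1, which acts with Dock2 on Rac. They differed by −0.78, −0.61 and −0.60, at limma adjusted p values of 0.382 to 0.440, and Plcb2 had both group means under background. Gnai2, like Myd88, lies on chromosome 9.

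Position on the chromosome was then examined. In the gene order of the RefSeq table of assembly GRCm38.p6, used here for order only, Ccrl2 and Ccr2 bound a span of 113 measured genes that holds Myd88 and all 8 receptors. Ccrl2 lies on one side of Myd88 with 41 measured genes between them. Cx3cr1 lies on the other side with 11 between, and Ccr9, Cxcr6, Xcr1, Ccr1, Ccr3 and Ccr2 follow in that order with 62 to 69 between.

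The 105 other genes of the span were split evenly, 52 lower and 53 higher, with a median of 0.00. Among them 8 (7.62%) did not overlap on the lower side, Myd88 included, and 3 (2.86%) on the higher side. On the rest of chromosome 9 the shares were 6.59% and 7.87% of 1016 genes, and on other chromosomes 7.49% and 7.43% of 18373. The lowest difference among the 105 was −0.62, and Ccr2, Ccr9, Cx3cr1 and Xcr1 lay below it. Fyco1, which stands between Ccr9 and Cxcr6, differed by −0.10, and Ccr1l1, between Ccr1 and Ccr3, by −0.11. The comparison receptor genes Ccr4, Ccr8 and Ackr2 also lie in the span and differed by 0.07, 0.03 and 0.38, Ackr2 without overlap. Each of them had both group means under the background control median.

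**Figure D4:**
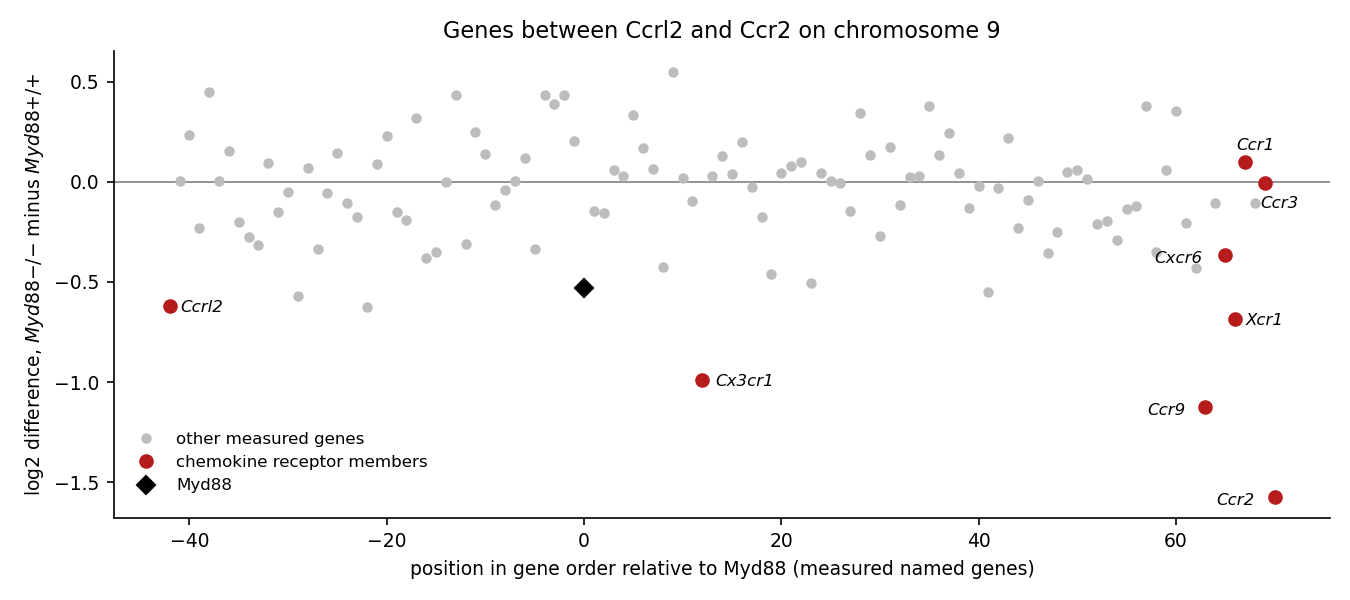
The log2 difference, Myd88−/− minus Myd88+/+, is plotted for the 113 measured genes from Ccrl2 to Ccr2 in their order on chromosome 9, counted in genes from Myd88 (black diamond), with the 8 receptors in red and other genes in grey. The grey points, which include the comparison receptor genes Ccr4, Ccr8, Ackr2 and Ccr1l1, lie between −0.62 and 0.55. Of the 8 receptors, 4 lie below them.

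Genes with the most similar pattern were sought for the 4 receptors with a group mean above the background control median, by the root mean square difference of centred log2 values over the 6 arrays among 17034 named genes. Nearest to Ccr2 were Psmb8, an immunoproteasome subunit, at 0.07 log2 units, Klra16, a receptor gene of the NK cell Ly49 family, at 0.20, and Gvin1, an interferon-inducible GTPase, at 0.20. Psmb8 read 9.47, 10.41 and 11.03 against 9.06, 8.45 and 8.86, the same order of mice as Ccr2. Nearest to Cx3cr1 were the Fc receptor gene Fcgr3 at 0.04, the apoptosis inhibitor gene Birc3 at 0.06 and the receptor gene Gpr65 at 0.06. Nearest to Xcr1 were Cd1d2, Col14a1 and Myo9a at 0.12 to 0.15, and nearest to Ccrl2 were Ptprs, Antxr1 and Itsn1 at 0.17 to 0.18. Birc3 and Myo9a lie on chromosome 9, outside the span. These genes were chosen by their values, so the likeness is a description only.

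The promoters of the 3 receptors whose groups did not overlap, and of Ccr1, whose groups overlapped, are shown because the motif matches described next lie in them or are missing from them. Ccr1 and Ccr9 lay under background on all 6 arrays. Each is the 250 bases before the RefSeq transcription start in GRCm38.p6, written 5′ to 3′ on the strand of the gene, with motif matches in capitals.
Ccr2, chr9:124101933-124102182, plus strand: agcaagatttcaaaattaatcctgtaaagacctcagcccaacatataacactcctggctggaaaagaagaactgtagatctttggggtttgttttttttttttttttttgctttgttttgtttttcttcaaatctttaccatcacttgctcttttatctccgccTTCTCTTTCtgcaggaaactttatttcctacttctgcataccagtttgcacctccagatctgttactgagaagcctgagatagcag
Cx3cr1, chr9:120068297-120068546, minus strand: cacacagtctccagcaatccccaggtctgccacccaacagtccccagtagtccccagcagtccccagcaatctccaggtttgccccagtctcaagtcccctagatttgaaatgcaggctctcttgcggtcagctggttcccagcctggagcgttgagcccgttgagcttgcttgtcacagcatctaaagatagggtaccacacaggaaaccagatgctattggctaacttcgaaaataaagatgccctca
Ccr9, chr9:123766961-123767210, plus strand: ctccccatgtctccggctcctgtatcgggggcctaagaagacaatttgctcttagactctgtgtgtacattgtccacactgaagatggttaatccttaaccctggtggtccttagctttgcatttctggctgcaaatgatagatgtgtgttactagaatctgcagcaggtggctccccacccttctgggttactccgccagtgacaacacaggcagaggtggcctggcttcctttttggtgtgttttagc
Ccr1, chr9:123968693-123968942, minus strand: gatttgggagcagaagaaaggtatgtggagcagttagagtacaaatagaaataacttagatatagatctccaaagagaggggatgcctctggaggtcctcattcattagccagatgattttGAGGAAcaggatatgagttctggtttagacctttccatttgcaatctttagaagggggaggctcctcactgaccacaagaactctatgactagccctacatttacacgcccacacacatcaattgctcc

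The 3 motifs searched on both strands were GAGGAA, a core bound by the myeloid factor PU.1 and its relatives, TTCNNNGAA, the site type of interferon-activated STAT dimers, which reads the same on both strands, and GAAANNGAA, a core of the interferon-stimulated response element. No match of one overlapped another. All 8 receptors had a promoter in the table, 10 windows in all because Ccrl2 has several starts. GAGGAA was found in 2 of the 8, Ccr1 and Ccr3, at 129 to 124 and 181 to 176 bases before the start, against 23.4% of 32536 distinct windows of that length. TTCNNNGAA was found in 0 of 8 against 7.04%. GAAANNGAA was found in 1 of 8, Ccr2, on the opposite strand at 86 to 78 bases before the start, against 7.15%. The last motif was searched in 2 lengths after the data were seen: with 1 more A required at its end it was found in 0 of 8, against 2.98%, so the Ccr2 match depends on the length chosen. The windows of Cx3cr1 and Ccr9 hold none of the 3 motifs, which says nothing of sites elsewhere.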

How the data were processed

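Each of the 6 mice gave 1 Clariom S array, and groups were taken from titles and strain labels. The authors deposited log2 values, computed with RMA by the Transcriptome Analysis Console per the labels, which state neither its version, nor the RMA variant, nor the array's genome build. RMA shrinks differences near background, where most of the receptors lie, and the number of arrays limits precision. Of 28846 probe sets, 6640 were controls and not tested. Of the 22206 tested, 19572 had 1 symbol in the array's annotation table, 0 several and 2634 none. The probe set with the highest mean stood for a gene.

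The genotypes were compared in R 4.3.3 by limma 3.58.1 (lmFit, eBayes, no covariates), with p adjusted by Benjamini-Hochberg over all tested probe sets and called at an adjusted p under 0.05. Single values had two-sided exact permutation tests over mice. Other settings were quantile normalization, median centring, cyclic loess, leaving out the dimmest 30%, array weights, robust variances with an intensity trend, a replicate block and leaving out each mouse. Named genes were Myd88, the 8 receptors, all measured ligands, the leading 3 of other pathway lists and 2 of marker lists by unadjusted p. To these came the leading 4 in each direction of the chromosome 9 span and the 3 most similar genes per receptor above background. Other names (Klk1, Prol1, Aqp5, Cxcr3, Cxcr4, Ccr7, Ccr4, Ccr8, Tlr3, Fyco1, Ccr1l1, and markers under background) were chosen after values were seen. The receptors and lists were chosen with earlier results of these data known.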

Additional observations from a re-analysis of the deposited data

How the results depend on the processing

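For the 8 receptors together, 0 passed limma's adjusted test under each of the 13 other settings. Across the whole array, 2 probe sets were called with median centring, 4 with an intensity trend and robust variances, and 0 to 5 when 1 mouse was left out, against 0 as reported; none of them was one of the 8. With the replicate number as a block 0 were called, and Ccr2 kept a difference of −1.57 at a limma adjusted p of 0.518; same-numbered mice correlated at −0.11, −0.15 and −0.02 in their deviations from group means, so the numbers do not pair the mice. With 1 mouse left out, 3 to 5 receptors were lower without overlap, where 10.9% to 15.5% of all probe sets were. Without Myd88−/− replicate 2, 3 receptors were lower and 1 was higher without overlap. After renormalization, receptors without overlap in either direction numbered 3 or 4. Of the 113 span genes, those without overlap in either direction numbered 19 to 32 with 1 mouse left out, against 14 with all. Of all probe sets, 23.26% to 31.98% did not overlap in either direction with 1 mouse left out. Smaller groups overlap less often by construction. The sign of Ccr3 turned with array weights (0.016) and ranged from −0.18 to 0.23 with 1 mouse left out; the cause was not tested. The other 7 receptors kept their sign under every planned setting that could be run; relative to the leukocyte marker score, an added setting, only Ccr2 still had a difference below 0 (−0.37). Without the dimmest 30% only Ccr2, Cx3cr1, Xcr1 and Ccrl2 were still tested. Averaging several probe sets of a gene gave no other value, as each receptor has 1.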

Other observations

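Of the span's other genes, those with the smallest unadjusted p on the lower side were Cmtm8 with a log2 difference of −0.62, Crtap, a collagen-modifying protein gene, with −0.57, Myd88 with −0.53 and Tgfbr2, a receptor for transforming growth factor beta, with −0.38, all 4 without overlap. On the higher side were Ttc21a with 0.55, Dclk3 with 0.45, Slc22a14 with 0.43 and Slc6a20b with 0.36, the last 2 with overlap; of these 4 only Slc6a20b had a group mean above the background control median. By limma, adjusted p ran from 0.388 to 0.562 over these 8. Among markers of tissue beside the gland, the muscle gene Ckm differed by −0.65 and Myh4 by 0.52, the latter under background. Neutrophil markers were level, with 2 of 4 lower, S100a8 at −0.17 and Retnlg at 0.08, both under background. Of 6 plasma cell markers 4 were lower; Jchain, the joining chain of secreted IgA, read 9.72 ± 1.82 and 7.53 ± 1.54 (SD, n = 3 each) with overlap, and Prdm1, under background, differed by −0.30. Elf5 and Krt7, genes of gland epithelium, differed by 0.48 and −0.26.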
